A study of Mus musculus with 4 samples.

Results

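The genes described here are 3 receptors for the cytokines BAFF and APRIL (Tnfrsf13b, Tnfrsf13c and Tnfrsf17), the death receptor gene Fas, the adaptor genes Traf1, Traf2 and Traf3, and Birc3, which encodes a ubiquitin ligase that works with these adaptors. They were found on the arrays as the non-control probes whose accession is a RefSeq transcript of one of the 8 genes, which gave 11 of 39429 probes and 8 of 32580 genes or unnamed features. All 8 genes were found, Tnfrsf13b, Tnfrsf13c and Traf2 by 2 probes each and the others by 1, and all 11 probes were well above background on all 4 arrays.

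BAFF and APRIL are TNF family cytokines that keep B cells and plasma cells alive. BAFF-R, the product of Tnfrsf13c, binds BAFF alone and is needed for the survival of mature B cells, whereas TACI (Tnfrsf13b) and BCMA (Tnfrsf17) bind both cytokines. Inside the cell, TRAF2 and TRAF3 together with cIAP ligases such as the Birc3 product mark the kinase NIK for degradation. When a receptor is engaged, TRAF3 is removed, NIK accumulates and the alternative NF-kB arm is switched on. Activated B cells also carry Fas, through which T cells can trigger their death.

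The samples were 2 of Aff3-/- and 2 of Aff3+/- splenic B cells, purified as cells lacking the surface protein CD43 and stimulated with IL-4 (10 ng/mL) plus LPS (10 ug/mL), a TLR4 ligand, until RNA was taken on day 3. AFF3 belongs to a family of nuclear proteins that associate with factors of transcription elongation, and the comparison asked how its absence alters expression in activated B cells. The cells of the Aff3+/- mice carry 1 disrupted allele, so no group here was wild type. Nothing in the labels tells if the 2 replicates of a genotype were taken from different mice, and p-values therefore measure only the spread between these samples, which may be technical.

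RNA from each sample was hybridised to 1 single-colour Agilent array. An array had 24970 to 25895 probes well above background, no gene spot was saturated, and 1 slide and 1 scan held all 4 arrays. All 8 markers of the B cell list, among them Cd79a, Cd79b and Ms4a1, were well above background on every array. So were all 7 plasma cell markers, which activated B cells begin to express. Of the T cell markers 6 of 7 were above background on every array, but Cd3g on none. Of the 6 myeloid markers with a probe 4 were above background on every array and Lyz2 and Mpo on none, and of the 5 NK cell markers 2, with Ncr1 and Klrb1c on none. Of the 4 erythroid markers with a probe, 1 was above background on every array, with Alas2 on none, and of the 5 stromal and endothelial markers 3, with Col1a1 on none. The Aff3 transcript was not analysed here, so the genotype of each sample rests on its label. The number of arrays limits the precision of every value below.

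To show the sequence context of the receptors and adaptors, the 250 bases before 1 annotated transcript start of each gene were taken from RefSeq on build GRCm38.p6, where all 8 genes had an entry. That start is the outermost end of the annotated gene for Tnfrsf13c and Traf2. It lies 12, 35, 40 and 49 bases inside the gene for Fas, Birc3, Traf1 and Traf3, and 472 and 577 bases inside it for Tnfrsf13b and Tnfrsf17, whose windows therefore fall wholly within the gene. Distances to a match are from the start that follows the window. Printed here are the windows of Tnfrsf13b and Traf1, the genes whose genotypes did not overlap, and those of Tnfrsf13c, Fas and Traf3, which like that of Tnfrsf13b held a searched motif. Matches are in capitals.
Tnfrsf13b (chr11:61126505-61126754, plus strand): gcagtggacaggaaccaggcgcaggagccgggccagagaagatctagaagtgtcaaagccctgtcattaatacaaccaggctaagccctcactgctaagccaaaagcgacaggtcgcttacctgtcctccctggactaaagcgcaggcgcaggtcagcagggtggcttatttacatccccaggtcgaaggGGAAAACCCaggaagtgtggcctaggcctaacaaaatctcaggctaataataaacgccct
Traf1 (chr2:34961773-34962022, minus strand): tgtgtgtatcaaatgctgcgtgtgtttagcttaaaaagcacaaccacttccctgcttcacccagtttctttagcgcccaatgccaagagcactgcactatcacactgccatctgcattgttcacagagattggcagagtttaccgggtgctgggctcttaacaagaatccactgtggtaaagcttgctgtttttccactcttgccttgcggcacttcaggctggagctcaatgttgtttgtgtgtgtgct
Tnfrsf13c (chr15:82224381-82224630, minus strand): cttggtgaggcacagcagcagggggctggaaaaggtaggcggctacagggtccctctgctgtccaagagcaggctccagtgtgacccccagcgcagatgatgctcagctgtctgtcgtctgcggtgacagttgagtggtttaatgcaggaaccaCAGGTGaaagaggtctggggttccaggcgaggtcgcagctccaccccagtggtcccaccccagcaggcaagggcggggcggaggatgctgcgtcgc
Fas (chr19:34290409-34290658, plus strand): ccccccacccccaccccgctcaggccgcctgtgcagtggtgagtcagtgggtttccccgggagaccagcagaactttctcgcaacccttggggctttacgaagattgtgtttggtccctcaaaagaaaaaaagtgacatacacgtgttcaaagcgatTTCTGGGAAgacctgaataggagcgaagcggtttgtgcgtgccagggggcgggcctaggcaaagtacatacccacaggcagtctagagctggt
Traf3 (chr12:111166120-111166369, plus strand): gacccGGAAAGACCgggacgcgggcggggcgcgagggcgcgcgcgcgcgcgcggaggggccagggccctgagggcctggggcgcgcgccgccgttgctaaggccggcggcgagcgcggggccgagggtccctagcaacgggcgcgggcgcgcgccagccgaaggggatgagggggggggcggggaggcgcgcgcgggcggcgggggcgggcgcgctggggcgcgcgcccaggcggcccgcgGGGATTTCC

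Motifs of 4 factors of activated B cells were searched on both strands. The NF-kB motif GGNNTTTCC was in 2 of the 8 windows and in 4.93% of all 32851 windows of that length. In Traf3 it occurred at both ends of the window. It stood as GGGATTTCC in the last bases, which lie inside the annotated gene, and as GGAAAGACC, its other strand, near the far end. In Tnfrsf13b it stood as GGAAAACCC, ending 52 bases before the start that follows the window, and so also inside the annotated gene. A STAT motif, TTCNNNGAA, was in the window of Fas as TTCTGGGAA, 85 bases before the start, and in 7.02% of all windows. An E-box of the form CAGGTG was in the window of Tnfrsf13c, 91 bases before the start, and in 17.2% of all windows. The ETS motif GAGGAAGT (2.44% of all windows) was in none of the 8. No match overlapped another in the printed windows, and a match is a description of the letters, not a shown binding site. The windows also differed in base composition, with 85.2% G or C for Traf3 and 43.6% for Birc3, against a median of 52.4% over all windows.

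Tnfrsf13b, the TACI gene, was the member whose signal was lower in Aff3-/- cells without overlap between the genotypes. Signals are given as multiples of the 75th percentile of the same array, and levels are compared between arrays for 1 probe at a time. The brighter probe read 2.62 and 2.53 in Aff3-/- replicates 1 and 2, against 3.29 and 2.89 in Aff3+/- replicates 1 and 2. The second probe read 0.642 and 0.688 in Aff3-/- cells, against 0.811 and 0.763 in Aff3+/- cells. Both probes thus placed both Aff3-/- arrays below both Aff3+/- arrays, and each probe's genotype means lay further apart than its replicates. On the log2 scale the brighter probe averaged 1.36 ± 0.03 in Aff3-/- cells and 1.62 ± 0.13 in Aff3+/- cells (SD, n = 2 each). The log2 difference was -0.26 ± 0.13 (SE), or -16.5% in signal, with a 95% interval of -0.59 to +0.07 (limma fitted across all features, adjusted p = 1.00, unadjusted p = 0.099). For the second probe it was -0.24 ± 0.12. The 2 probes read the same RNA samples and are not independent samples. In signal the interval of the brighter probe runs from -33.7% to +5.13% in this fit, which has no replicate block. By this fit the arrays tell apart neither an equal level nor a moderate loss of TACI transcript from the measured value. With the replicate number as a block, the standard error was 0.08, the unadjusted p 0.040 and the adjusted p 0.69 (limma). Among the other members the smallest unadjusted p with that block was 0.23, for Traf1 (limma). No label says what that number marks.

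**Figure D1:**
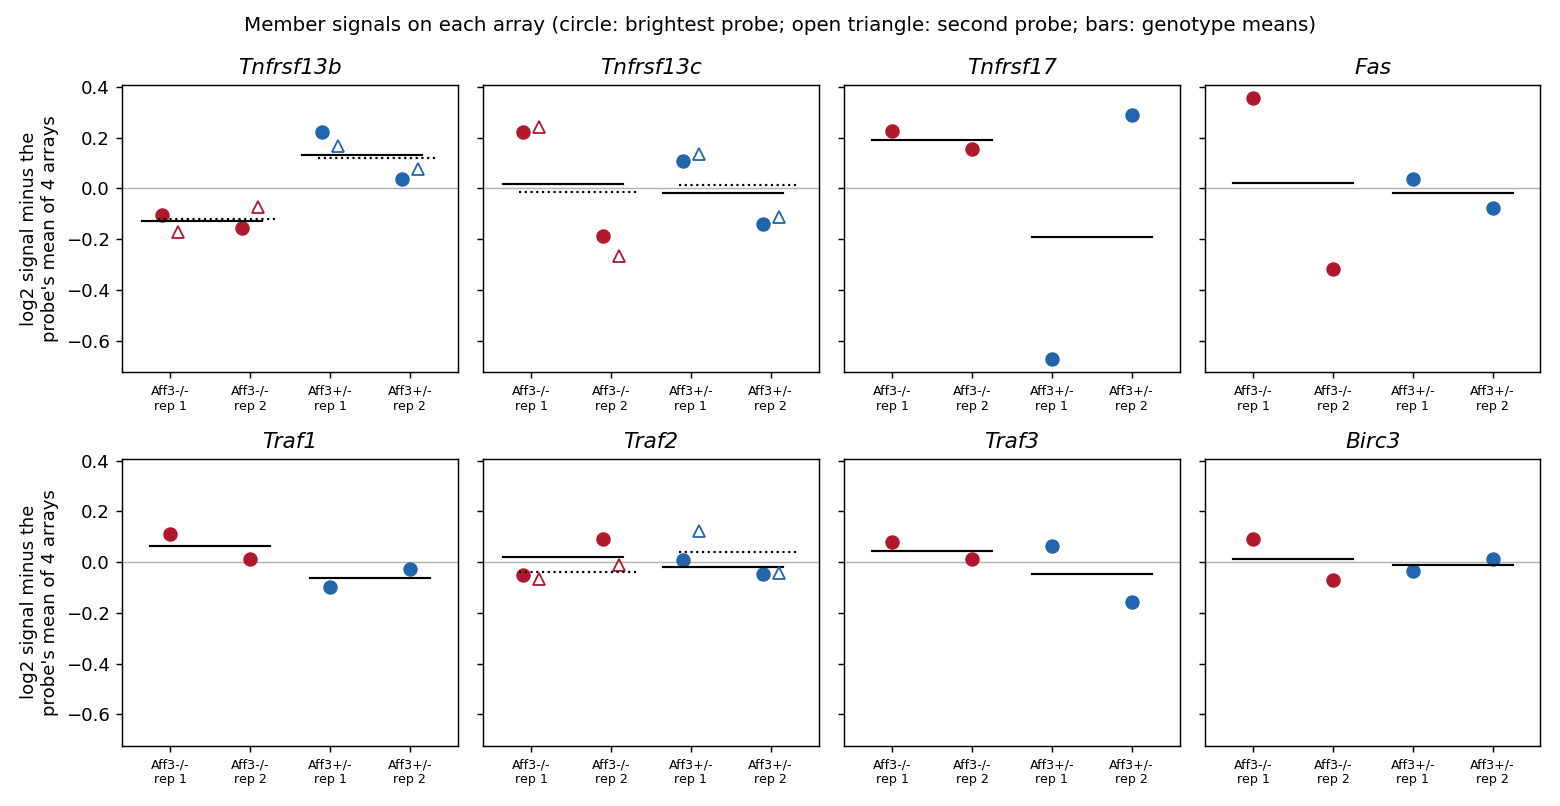
Log2 signal of each probe minus its own mean over the 4 arrays (y axis), for each array (x axis), with Aff3-/- arrays in red and Aff3+/- arrays in blue. Filled circles are the brightest probe of a gene, open triangles the second probe, and bars the mean of each genotype. The genotypes separate for Tnfrsf13b, on both probes, and for Traf1, while for Fas and Tnfrsf13c the 2 Aff3-/- arrays lie on either side of the Aff3+/- arrays.

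Tnfrsf13c, which encodes BAFF-R, was read with a bright signal on every array. The brighter probe stood at 49.9 and 37.6 times the array's 75th percentile in Aff3-/- replicates 1 and 2, against 46.1 and 38.8 in Aff3+/- replicates 1 and 2. The second probe stood at 1.55 and 1.09 in Aff3-/- cells, against 1.45 and 1.22 in Aff3+/- cells. Both probes gave the same order of arrays, with Aff3-/- replicate 1 highest and Aff3-/- replicate 2 lowest, so that the Aff3+/- values lay between them. The log2 difference between genotypes was +0.03 ± 0.19 (SE, 95% interval -0.47 to +0.54, adjusted p = 1.00 by limma) by the brighter probe, and the second probe gave -0.03 ± 0.22. With the replicate number as a block the difference of the brighter probe stayed at +0.03, with a standard error of 0.085 (limma). Its direction depended on single arrays: it was -0.17 when Aff3-/- replicate 1 was left out and -0.09 when Aff3+/- replicate 2 was left out. The summed signal of the 8 B cell markers was 339 and 281 in Aff3-/- replicates 1 and 2, against 336 and 301 in Aff3+/- replicates 1 and 2, the same order among the Aff3-/- arrays. Its part in the BAFF-R values was not tested. In such bulk samples fewer cells of a type and less RNA per cell cannot be told apart.

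Tnfrsf17, the BCMA gene, which is best known in plasma cells, was close to the detection limit. Its probe had 22.0 and 20.5 intensity units in Aff3-/- replicates 1 and 2, against 11.4 and 23.6 in Aff3+/- replicates 1 and 2, where the dimmest spots called well above background on an array had 5.96 to 6.95 units. A single array, Aff3+/- replicate 1, stood apart, and the groups overlapped. The log2 difference of +0.38 ± 0.34 (SE, 95% interval -0.51 to +1.27, adjusted p = 1.00 by limma) was the largest among the 8 genes and also had the widest interval. It was -0.10 when Aff3+/- replicate 1 was left out, +0.86 when Aff3+/- replicate 2 was, and -0.20 with another background correction (normexp on the median signals). The summed signal of the 7 plasma cell markers was 107.5 and 107.2 in Aff3-/- cells, against 98.2 and 106.1 in Aff3+/- cells, and was likewise lowest in Aff3+/- replicate 1. Its part in the Tnfrsf17 values was not tested.

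Fas differed more between the Aff3-/- arrays than between the genotypes. Its signal was 5.67 and 3.55 times the array's 75th percentile in Aff3-/- replicates 1 and 2, against 4.54 and 4.20 in Aff3+/- replicates 1 and 2. The 2 Aff3-/- arrays were thus the highest and the lowest of the 4, a ratio of 1.59 between them, and the Aff3+/- arrays lay close together. The SD on the log2 scale was 0.48 in Aff3-/- cells and 0.08 in Aff3+/- cells (n = 2 each), where the median SD over all features was 0.14 and 0.11. The log2 difference was +0.04 ± 0.25 (SE, 95% interval -0.62 to +0.70, adjusted p = 1.00 by limma). Leaving out Aff3-/- replicate 1 gave -0.30, leaving out Aff3-/- replicate 2 gave +0.38 and leaving out Aff3+/- replicate 2 gave -0.02, so the arrays give no stable direction for Fas.

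The array order of Fas, with Aff3-/- replicate 1 highest and Aff3-/- replicate 2 lowest, was shared by 3 of the 8 genes, namely Fas, Tnfrsf13c and Birc3. Over all 20651 features 14.3% showed that order. Traf2 had the opposite one, with Aff3-/- replicate 2 highest and Aff3-/- replicate 1 lowest. Of all features 2920 showed this opposite order and 2943 the first.

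Traf1 encodes an adaptor that lacks the RING domain of its relatives and is itself a target of NF-kB. It was the other gene without overlap, and here the Aff3-/- arrays were the higher ones. Its signal was 36.9 and 34.4 times the array's 75th percentile in Aff3-/- replicates 1 and 2, against 31.9 and 33.5 in Aff3+/- replicates 1 and 2. On the log2 scale it averaged 5.16 ± 0.07 in Aff3-/- cells and 5.03 ± 0.05 in Aff3+/- cells (SD, n = 2 each). The log2 difference was +0.13 ± 0.12 (SE, 95% interval -0.18 to +0.43, adjusted p = 1.00 by limma), or 9.06% more signal. The gap between the nearest arrays of the 2 genotypes was narrow, and the difference did not pass the test.

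Traf2, the RING adaptor that brings cIAP ligases to the receptors, had 11.2 and 12.4 times the array's 75th percentile in Aff3-/- replicates 1 and 2, against 11.7 and 11.3 in Aff3+/- replicates 1 and 2. The Aff3+/- values lay within the range of the Aff3-/- values. The log2 difference was +0.04 ± 0.12 (SE, 95% interval -0.28 to +0.36), and it was -0.03 without Aff3-/- replicate 2. A second, dim probe had 77.0 and 78.2 intensity units in Aff3-/- cells, against 84.9 and 80.3 in Aff3+/- cells, a log2 difference of -0.08 ± 0.12. The 2 probes differed in sign, each by less than its error, and the mean of both was -0.02.

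Traf3, the adaptor that holds NIK in check and whose loss lets B cells survive without BAFF in mice, was at 6.11 and 5.83 times the array's 75th percentile in Aff3-/- replicates 1 and 2, against 6.05 and 5.19 in Aff3+/- replicates 1 and 2. Aff3+/- replicate 2 was lower than the other 3 arrays, and the groups overlapped. The log2 difference was +0.09 ± 0.13 (SE, 95% interval -0.26 to +0.44, adjusted p = 1.00 by limma), and -0.02 without Aff3+/- replicate 2. Its window printed above is the one that ends in an NF-kB motif.

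Birc3, the gene of cIAP2, was at 1.32 and 1.18 in Aff3-/- replicates 1 and 2, against 1.21 and 1.25 in Aff3+/- replicates 1 and 2, on the same scale. The genotype means were almost level, with a log2 difference of +0.02 ± 0.12 (SE, 95% interval -0.30 to +0.34, adjusted p = 1.00 by limma). Leaving out Aff3-/- replicate 1 gave -0.06 and leaving out Aff3+/- replicate 1 gave -0.0008.

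**Figure D2:**
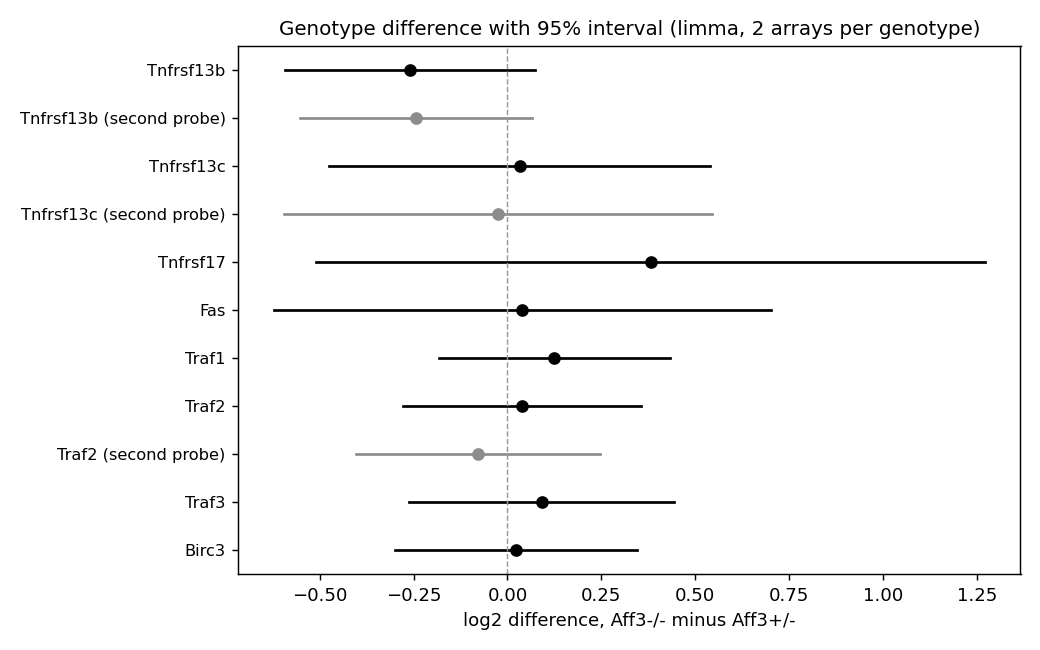
Log2 difference between Aff3-/- and Aff3+/- cells (x axis) for each of the 11 probes (rows), with the 95% interval from limma; black points are the brightest probe of a gene and grey points the second probe. In this fit without a replicate block every interval includes 0, and that of Tnfrsf17, from -0.51 to +1.27, is the widest.

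Set side by side, 7 of the 8 genes had a log2 difference above 0 and 1, Tnfrsf13b, below 0, with a median of +0.04, where 45.7% of all features were above 0, 54.3% below, and the median was -0.01. No member passed the adjusted threshold of 0.05 with limma (0.0% of all features did), and in this fit without a replicate block none had an unadjusted p under 0.05, which 422 features (2.04%) had. The genotypes did not overlap for 2 of the 8 genes, where 19.6% of all 20651 features showed no overlap. In the lower direction this was 1 gene, Tnfrsf13b (11.2% of all features), and in the higher direction 1, Traf1 (8.45%). These shares are near those of the features at large. For the other 6 genes the difference between genotypes was smaller than the larger of the 2 differences between replicates. The intervals come from a fit without a replicate block, in which limma draws each gene's spread toward that of all features. They rest on the spread between these samples, which may be technical, and do not bound the difference between the genotypes at large. By the brightest probes of Traf1, Traf2, Traf3 and Birc3 they reach no further than -18.8% and +35.9% in signal. They reach +62.6% for Fas and +141% for Tnfrsf17.

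**Figure D3:**
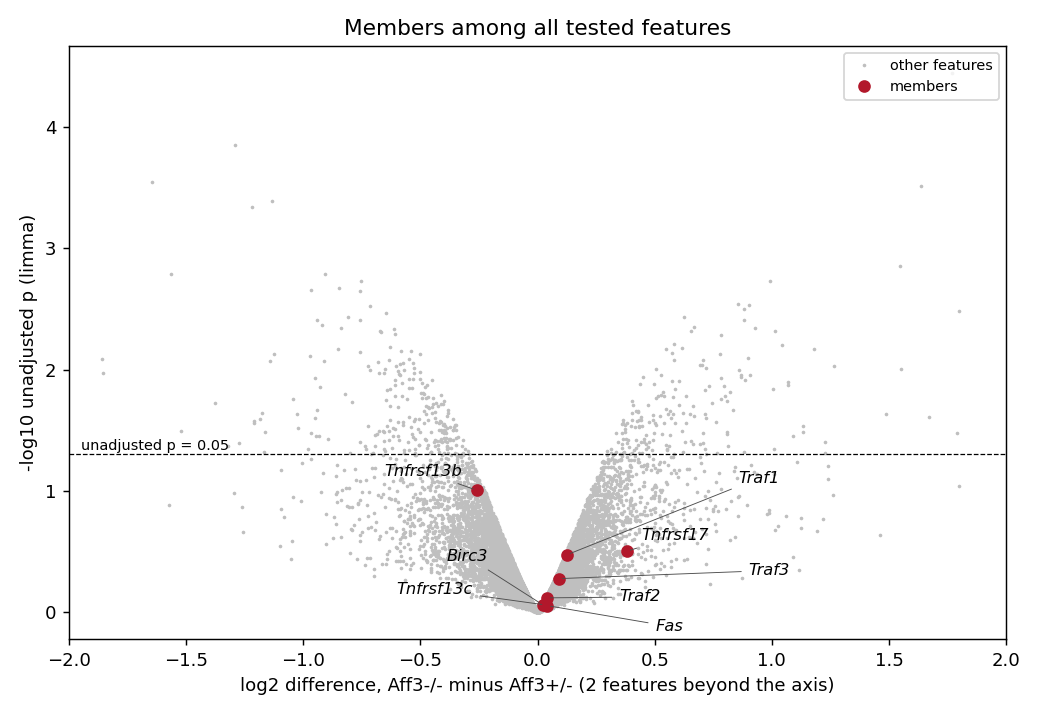
Log2 difference between Aff3-/- and Aff3+/- cells (x axis) against -log10 of the unadjusted p from limma (y axis) for 20651 features, with the 8 genes in red. The dashed line marks an unadjusted p of 0.05, which none of the 8 reached in this fit without a replicate block. Tnfrsf13b comes closest, with an unadjusted p of 0.099 by limma.

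The surrounding pathway was read from 7 lists with 77 genes in all, of which 72 were tested. None of the 72 passed the adjusted threshold by limma, and in the fit without a replicate block none had an unadjusted p under 0.05. Their values with the block are not given here. Of the 71 that were well above background on all 4 arrays, 34 were above 0 and 37 below, with a median log2 difference of -0.01, and 17 (23.9%) showed no overlap, against 19.6% of all features. Apart from Cd40, Traf6, Fadd and Casp8, which were chosen after their values were seen, the genes named below are the 2 of smallest p in each list.

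Of the 5 ligand genes, 2 were tested. The BAFF gene Tnfsf13b was well above background on 1 of 2 Aff3-/- and 1 of 2 Aff3+/- arrays, and the CD40 ligand gene Cd40lg, typical of T cells, on none. The Fas ligand gene Fasl was above background on 1 of 2 Aff3-/- and on both Aff3+/- arrays, with 9.36 and 6.17 intensity units in Aff3-/- cells, against 10.8 and 9.11 in Aff3+/- cells. It passed the filter on dim probes through the Aff3+/- arrays alone, which favours a negative difference, so none is given for it. Tnfsf12, which encodes the cytokine TWEAK, had a log2 difference of -0.04 ± 0.19 (SE). The APRIL gene Tnfsf13 found no probe through its accessions and was not analysed here.

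Among 12 tested genes of other TNF receptors, 9 were above 0 and 3 below (median +0.06, range -0.11 to +0.59), with 2 higher and 1 lower without overlap. Tnfrsf8, the CD30 gene, was at +0.59 ± 0.40 (SE) with overlap, and like Tnfrsf17 it was dim and lowest in Aff3+/- replicate 1. It read 0.028 and 0.026 times the 75th percentile in Aff3-/- replicates 1 and 2, against 0.012 and 0.027 in Aff3+/- replicates 1 and 2. Aff3+/- replicate 1 alone thus set the difference. Tnfrsf1a, the gene of TNF receptor 1, was at -0.11 ± 0.11 without overlap, but at +0.46 for its other, dimmer probe. Cd40, the B cell receptor for T cell help, which signals through the same TRAF proteins, read 10.5 and 10.4 times the 75th percentile in Aff3-/- cells, against 9.94 and 9.62 in Aff3+/- cells. That difference of +0.10 ± 0.11 was without overlap and within its error.

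Of 11 other TRAF family and TRAF-binding genes, 3 were above 0 and 8 below (median -0.07), and 1 of them, Trafd1, showed no overlap, at -0.11 ± 0.11 (SE). Tifa, which activates TRAF6, was at -0.42 ± 0.40, with 0.367 and 0.163 times the 75th percentile in Aff3-/- replicates 1 and 2, against 0.337 and 0.319 in Aff3+/- replicates 1 and 2, so that Aff3-/- replicate 2 alone set it. Traf6, the adaptor of TLR4 and CD40 signalling, was at -0.01 ± 0.12. The 10 other IAP genes and IAP antagonists had 4 above 0 and 6 below (median -0.01). Without overlap 2 were lower, as were 11.2% of all features. Htra2, a mitochondrial protease that antagonises IAPs, was at +0.12 ± 0.13 with overlap. Naip6, 1 of several closely similar genes whose probes may not be specific, was at -0.19 ± 0.22, also with overlap.

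The alternative NF-kB arm, on which BAFF-R and TRAF3 act, had 6 tested genes, 4 above 0 and 2 below, with a median of +0.06. Of these, 3 were higher and 1 lower without overlap, where 19.6% of all features showed no overlap in either direction. Nfkb2, whose product is processed to the p52 subunit, read 9.25 and 8.93 times the 75th percentile in Aff3-/- replicates 1 and 2, against 7.49 and 7.97 in Aff3+/- replicates 1 and 2. Its log2 difference was +0.23 ± 0.11 (SE, unadjusted p = 0.10 by limma without a replicate block, adjusted p = 1.00). Map3k14, the NIK gene, was on the lower side, at -0.11 ± 0.11 and -0.14 for its other probe. The list holds few genes, and none passed the test.

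Of 15 classical TNF receptor signalling genes, 9 were above 0 and 6 below (median +0.01, range -0.06 to +0.14). Otulin, which removes linear ubiquitin chains, was at +0.13 ± 0.11 (SE) without overlap, and Tab2, an adaptor of the kinase TAK1, at +0.14 ± 0.14. In the Fas death pathway, 16 genes were tested, 5 above 0 and 11 below (median -0.06), with 4 lower and 0 higher without overlap. Of all features 11.2% were lower and 8.45% higher without overlap, and none of the 16 passed the test. Fcmr, the IgM receptor gene once named for blocking Fas-induced death, was at -0.31 ± 0.19. Fadd, the adaptor that binds Fas, was at +0.03 ± 0.17 and Casp8, the initiator caspase gene, at -0.004 ± 0.11, each differing by less than its error.

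**Figure D4:**
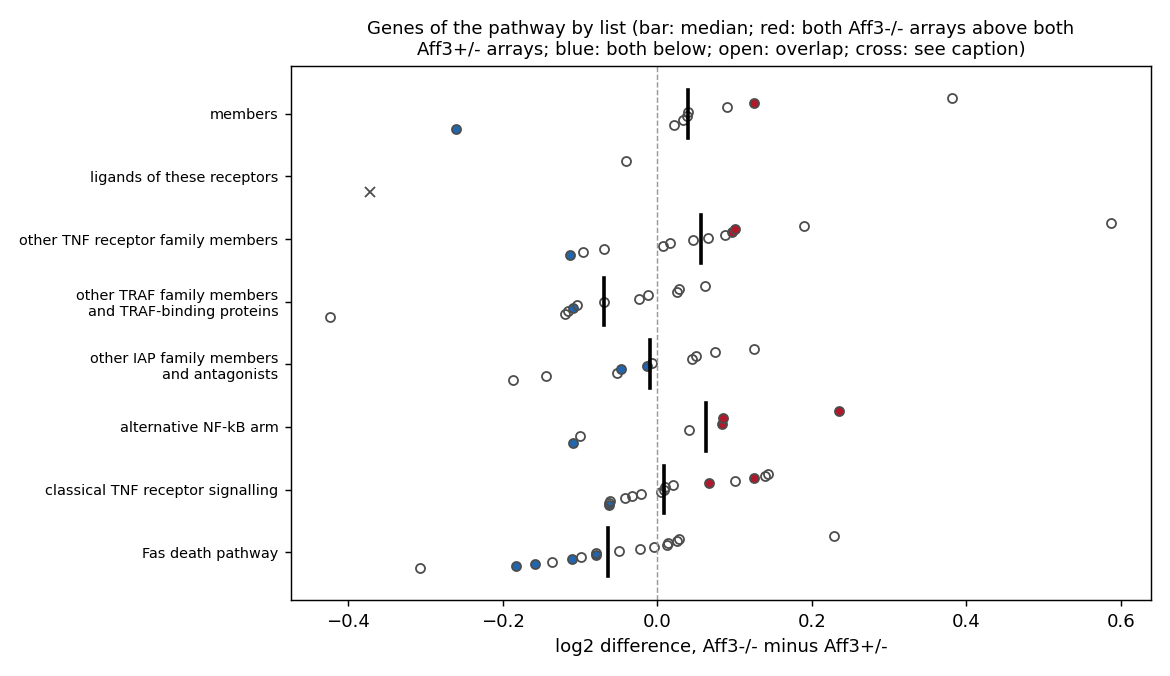
Log2 difference between Aff3-/- and Aff3+/- cells (x axis) for the 8 genes and for the tested genes of the 7 pathway lists (rows), with the median of each row of more than 2 genes as a bar. Red points are genes higher and blue points genes lower in Aff3-/- cells without overlap, and open points overlap. The cross is Fasl, which passed the filter through the Aff3+/- arrays alone. The row medians drawn lie within 0.1 of 0.

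The genes most like 3 of the members were sought by the root mean square distance of log2 values over the 4 arrays, after each gene's own mean was removed, among 13801 features with a symbol. Nearest to Tnfrsf13b were Ssh2 (0.018), Gm128 (0.019) and Gm12185 (0.020). For Fas they were Eng (0.0087) and Gpr162 (0.014), and for Traf1 they were Dnase1 (0.0027), Aqp2 (0.0048) and Csrp1 (0.010). These distances describe 4 arrays that share 1 slide and carry no test, and no other member was among the neighbours.

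**Figure D5:**
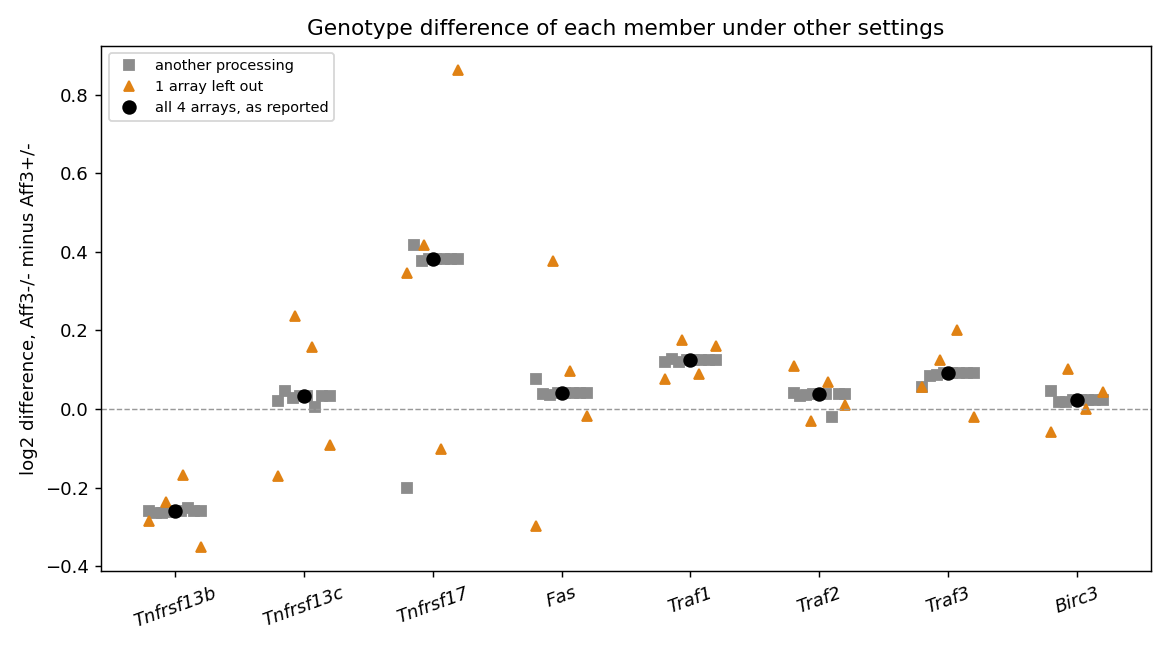
Log2 difference between Aff3-/- and Aff3+/- cells (y axis) for each of the 8 genes (x axis) with all 4 arrays (black circles), under another processing (grey squares) and with 1 array left out (orange triangles). Tnfrsf13b stays below 0, between -0.35 and -0.17, and Traf1 above 0, between +0.08 and +0.17, while the other 6 genes cross 0 under at least 1 setting. The genotypes of Tnfrsf13b and Traf1 did not overlap, so leaving out 1 array could not turn their sign.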

How the data were processed

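Per the file headers, each deposited scanner file holds 1 array, read with Agilent Feature Extraction (version 10.7.1.1, also in the submitters' processing notes). Its intensity values are linear, background-subtracted and detrended by that software, and flags (other values, per the file headers) say which spots were outliers, saturated or well above background. The deposited value table gives log2 values of 25372 probes, each centred on its median of the 4 arrays. Set against the scanner values after centring, its columns ran the same way (r = 0.9998 to 0.9999). Its column medians were -0.04 and 0.02 for Aff3-/- replicates 1 and 2 and 0.13 and -0.03 for Aff3+/- replicates 1 and 2, and its scaling between arrays stays unknown. It served as an alternative and covers 4 of the 11 probes, those of Tnfrsf13b and Traf2.

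Control spots and spots flagged as outliers were left out, the log2 processed signal was reduced by the array's 75th percentile (1317 and 1288 units for Aff3-/-, 1274 and 1351 for Aff3+/-), and probes well above background on both arrays of a genotype were kept, leaving 25136 probes and 20651 features. Probes were named by accession through a RefSeq table (GRCm38.p6), which paired 26581 of 39429 probes with a symbol, and a further 6 through a unique synonym. The array design cites another build, so positions of probes are not given. A gene was represented by its brightest probe. Aff3-/- minus Aff3+/- differences were fitted with limma 3.58.1 in R 4.3.3 (2 residual degrees of freedom, two-sided, Benjamini-Hochberg over all features), and second probes in such a fit over all kept probes. Values after ± are standard errors unless named SD. Named genes are the members and, in each list, the 2 of smallest p, with exceptions stated. Some genes that this rule or the marker lists name are not reported here. The members and lists were chosen with earlier results of these data known. Background correction used the median signal where the plan named the mean.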

Additional observations from a re-analysis of the deposited data

How the results depend on the processing

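No feature and no member passed the adjusted threshold under any of 13 alternatives (0 in each with limma), and the number of features with an unadjusted p under 0.05 ran between 240 (eBayes with trend) and 1457 (replicate block), against 422. Of 98 recomputed member differences 37 equal the reported value by construction (the filters, eBayes with trend, the replicate block, and the mean of probes for genes with 1 probe). Of the other 61, 50 kept their direction and 11 turned. The choice of processing turned 2 of them: Tnfrsf17 was -0.20 with normexp, and Traf2 was -0.020 as the mean of its probes. Leaving out 1 array at a time gave -0.35 to -0.17 for Tnfrsf13b, -0.17 to +0.24 for Tnfrsf13c, -0.10 to +0.86 for Tnfrsf17, -0.30 to +0.38 for Fas, +0.08 to +0.17 for Traf1, -0.032 to +0.11 for Traf2, -0.020 to +0.20 for Traf3 and -0.058 to +0.10 for Birc3. The cause was not tested. For Tnfrsf13b and Traf1, whose genotypes did not overlap, leaving out 1 array could not turn the sign. Those values among the 50 kept their direction by construction. Under the 5 processing alternatives that could move it, Tnfrsf13b lay between -0.27 and -0.25, the deposited values (-0.26) included, where the median of all features was -0.07. Replicate numbers were shared by the genotypes, but no label says that they mark a shared litter or day. Deviations of same-numbered arrays correlated across features (r = 0.56). The median absolute log2 difference was 0.096 and 0.097 between same-numbered arrays of the 2 genotypes, while between replicates it was 0.199 in Aff3-/- and 0.157 in Aff3+/-. With the number as a replicate block, which in this balanced design leaves every difference as it is, Tnfrsf13b (-0.26) had a standard error of 0.08, an unadjusted p of 0.040 and an adjusted p of 0.69 (limma). Signal close to background limits Tnfrsf17, Tnfrsf8, Fasl, Tnfsf13b and Cd40lg.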
